A study of Homo sapiens with 9 samples.

Results

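The genes described are those of the spliceosome's small nuclear ribonucleoproteins (SNRP), of its branch-point recognition complexes (SF3A and SF3B), of the serine- and arginine-rich splicing factors (SRSF) and of the heterogeneous nuclear ribonucleoproteins (HNRNP). They were chosen by symbol alone, as all protein-coding genes whose symbol begins with SRSF, HNRNP, SNRP, SF3A or SF3B and that were assembled in at least 1 library. Of the 59 such genes in RefSeq, 52 were assembled, among 14696 genes named in the whole series: 20 of 26 HNRNP, 11 of 12 SRSF, 12 of 12 SNRP and 9 of 9 SF3A and SF3B genes. HNRNPA1L2, HNRNPA1L3, HNRNPCL1, HNRNPCL2, HNRNPCL3, HNRNPCL4 and SRSF12 were not assembled in any library. All 52 had a mean of at least 1 FPKM (a level per length of transcript, relative to all mapped fragments of the library) and entered the tests.

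The cells were WM3248, a human melanoma line, and the poly-A RNA of 9 libraries was sequenced. Cells had received ARN22089, a small molecule described as a blocker of signalling by CDC42-family GTPases, at 4 or 6 µM, or DMSO vehicle (0 µM), for 24 h. Each dose had 3 numbered libraries, all from the same line grown in plates and treated the day after seeding. The labels do not say whether the libraries came from separate cultures, so the p-values reflect no more than how far these libraries vary, which may be technical.

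Introns are removed from pre-mRNA by the spliceosome, whose small nuclear RNAs carry a ring of Sm proteins (SNRPB, SNRPD1, SNRPD2, SNRPD3, SNRPE, SNRPF and SNRPG). The SF3A and SF3B complexes belong to the U2 particle and hold it on the branch point. SR proteins mostly bind exons and favour the use of nearby splice sites, while hnRNP proteins coat the nascent transcript and often act against them. Many of these genes hold exons that, when included, send their own mRNA to nonsense-mediated decay (NMD), a known form of self-control in both protein families.

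For each gene a summed and a consensus value were used. The summed value is the sum of FPKM over the transcripts assembled for a gene. The consensus exon value averages FPKM base by base along those exon positions that at least 50% of the libraries with the gene had assembled. It counts every transcript assembled over those positions, on either strand and whether or not it was named to the gene. It is less open to short fragments being assembled in one library and not in another, but can take in overlapping transcripts. Summed FPKM over all transcripts lay between 587999 and 689699 in 8 libraries, but reached 1.06111e+06 in vehicle library 3, which stands apart. The number of fragments is not known, and the deposited coverage per FPKM, a measure of relative depth, spanned 1.67-fold between 4 µM library 3 and 6 µM library 1. Within a dose, log values over all genes correlated with r of 0.888 to 0.921 for summed and 0.919 to 0.958 for consensus values. All 7 melanocyte and melanoma markers examined were assembled, whereas 0 of 3 leukocyte markers (PTPRC, CD3E and CD14) were. Of 3 keratinocyte markers KRT14 alone was assembled, at 2.27, 2.11 and 1.70 FPKM in vehicle, 1.57, 1.43 and 0 FPKM at 4 µM, and 0.926, 0 and 0 FPKM at 6 µM, every 6 µM library below every vehicle library. All 4 fibroblast markers were assembled, and their list summed to 7.79 to 27.5 FPKM in vehicle, 14.4 to 28.7 FPKM at 4 µM and 13.4 to 24.1 FPKM at 6 µM, most of it LUM. The summed level of the melanocyte list ran from 404 to 1387 FPKM in vehicle, from 1243 to 2355 FPKM at 4 µM and from 1382 to 2051 FPKM at 6 µM. Of this S100B alone had 726, 97.0 and 1137 FPKM in vehicle, 1070, 1884 and 797 FPKM at 4 µM, and 946, 1479 and 912 FPKM at 6 µM. MLANA was listed at 0 in vehicle library 3. By mean, 0 of the 7 were lower at 6 µM than in vehicle. Summed DCT had 55.3, 141 and 77.4 FPKM in vehicle, 246, 281 and 258 FPKM at 4 µM, and 218, 365 and 289 FPKM at 6 µM. On consensus exons DCT overlapped, with 96.0 FPKM in 6 µM library 1 and 141 FPKM in vehicle library 2. A list of 7 genes of dividing cells summed to 541 to 738 FPKM in vehicle, 421 to 514 FPKM at 4 µM and 283 to 368 FPKM at 6 µM, and each of the 7 was lower in every 6 µM library than in every vehicle library. The part of these marker lists in the results was not tested. In bulk RNA, fewer cells of a type and less RNA per cell cannot be told apart.

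No gene of the 4 families passed the test on summed FPKM in any comparison. On the consensus exon value 1 of the 52, HNRNPAB, passed at 6 µM, lower than in vehicle, beside 4.21% of all genes tested. At that share a count of 1 of 52 says nothing particular about these genes, and the call was lost without any single library. What the families showed was a small shift. At 6 µM against vehicle 35 of 52 had a negative log2 difference, with a median of -0.20 over the 52 against -0.04 over all genes tested. Since the median over all genes was itself negative, most genes of any kind were negative too. The same holds, for values as deposited, wherever negative genes are counted below. The HNRNP genes had the lowest family median on summed FPKM, -0.24, with 17 of 20 negative. SRSF genes had a median of -0.20 (6 of 11 negative), SNRP genes -0.19 (7 of 12) and SF3A and SF3B genes -0.02 (5 of 9). A difference here is on the log2(value + 1) scale from limma's moderated fit over all 9 libraries, with Benjamini-Hochberg adjustment over 12261 genes for summed and 12303 genes for consensus values.

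The shift depended on the scale. When each library was rescaled to the same summed FPKM, the median over all genes itself moved to 0.22 at 6 µM and 0.31 at 4 µM, and the HNRNP median became positive, at 0.05 and 0.22. Relative to the median of all genes the HNRNP median was lower under every scaling: by -0.21 as deposited, -0.17 at a fixed sum and -0.20 with median-of-ratios scaling at 6 µM. The relative median over all 52 genes was -0.16, -0.14 and -0.16 under the same 3 scalings. Without vehicle library 3, whose summed FPKM stands apart, it was -0.16 over the 52 and -0.19 over the HNRNP genes, and over all single-library omissions the HNRNP value ran from -0.31 to -0.17. At 4 µM the relative HNRNP median was -0.13, -0.09 and -0.13.

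Few genes of any kind passed the test on summed FPKM. At 6 µM against vehicle 17 of 12261 genes (0.139%) did, 12 higher and 5 lower (4 genes in the blocked fit, which takes the library number as a block; 15 higher and 1 lower at a fixed sum). At 4 µM against vehicle 8 (0.0652%) did, 2 with the block, and at 6 µM against 4 µM 3 (0.0245%) did, 1 with the block. With shares this low, a count of 0 of 52 says nothing particular about these genes. At an unadjusted p below 0.05, 9 of the 52 were lower at 6 µM than in vehicle, against 9.68% of all genes, and 1 was higher, against 8.03%. The 9 were HNRNPUL2, HNRNPF, HNRNPAB, HNRNPA1, HNRNPUL1, HNRNPA2B1, SRSF10, HNRNPH1 and HNRNPL, so that 8 of the 20 HNRNP genes were among them, and the 1 was SRSF8. At a fixed sum 0 were lower, and without single libraries the count ran from 4 (6 µM library 1 left out) to 10. Shares over all genes are not set beside these counts. At a fixed sum the median over all genes was itself positive, as given above, so the 0 says nothing particular about the 52.

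On the consensus exon value 518 of 12303 genes (4.21%) passed at 6 µM against vehicle, 202 higher and 316 lower (274 higher and 295 lower with median-of-ratios scaling). This count rested on single libraries, with 9 genes left without 6 µM library 1 and 15 without 6 µM library 2. Among the 52, 39 had a negative difference, with a median of -0.24 against -0.05 over all genes, and at an unadjusted p below 0.05 11 lay lower (15.4% of all genes) and 2 higher (9.62% of all genes). HNRNP genes again had 17 of 20 negative, and a median of -0.27, which was -0.21 relative to all genes. On this value the SRSF median was lower still, at -0.29 (-0.24 relative to all genes), the SF3A and SF3B median -0.22 and the SNRP median -0.15. SF3A and SF3B genes were thus at 0.02 relative to all genes on summed and -0.17 on consensus values, so that their position turned on which value was taken. At 4 µM against vehicle 7 genes (0.0569%) passed, and at 6 µM against 4 µM 3 (0.0244%), none of them among the 52.

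**Figure D1:**
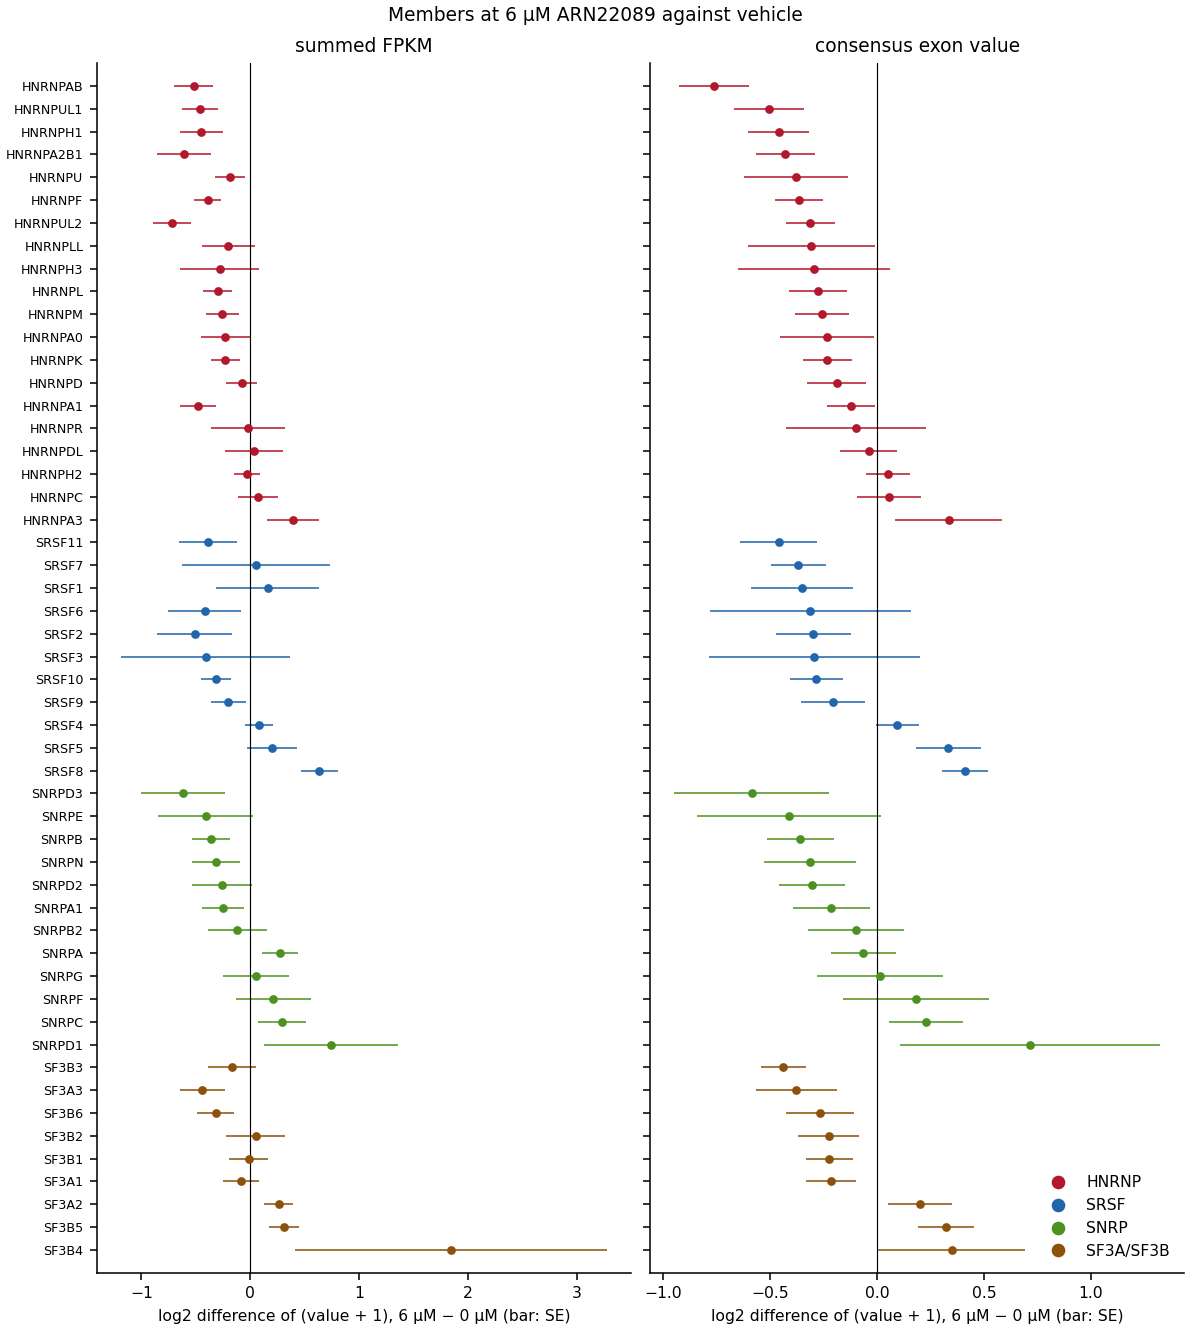
Log2 difference of (value + 1) at 6 µM ARN22089 minus vehicle for the 52 genes, as summed FPKM (left) and consensus exon value (right), with the standard error as a bar and the family as colour; the x ranges of the panels differ. HNRNP genes lie left of 0 in 17 of 20 cases in both panels. At a fixed sum 8 of 20 do, where the median over all genes was itself above 0. The widest bar, of SF3B4 on the left, has a standard error of 1.43.

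On summed FPKM every 6 µM library lay below every vehicle library for 10 of the 52 genes (14.1% of all genes), 8 of them HNRNP genes (HNRNPA1, HNRNPAB, HNRNPF, HNRNPH1, HNRNPK, HNRNPL, HNRNPUL1 and HNRNPUL2), with SF3A3 and SRSF10 beside them. Every 6 µM library lay above every vehicle library for SF3A2, SF3B5 and SRSF8 (10.9% of all genes). On consensus values the groups were apart with 6 µM below for 16 of the 52 (19.2% of all genes), namely 8 of 20 HNRNP, 4 of 9 SF3A and SF3B, 3 of 11 SRSF and 1 of 12 SNRP genes, and with 6 µM above for SF3B5, SRSF5 and SRSF8 (12.1% of all genes).

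Means followed the order 0 above 4 above 6 µM for 26 of the 52 genes on summed FPKM, against 26.7% of all genes, and for 15 of the 20 HNRNP genes. The reverse order held for 5 of the 52, against 20.3% of all genes. On consensus values 33 of the 52 had falling means, 15 of them HNRNP genes, against 33.9% of all genes. These counts describe means, and the steps between neighbouring doses passed no test for any of the 52.

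From the vehicle library of the same number, the HNRNP median at 6 µM lay -0.35, -0.30 and -0.23 away for libraries 1, 2 and 3 on summed FPKM, while the median over all genes lay -0.05, -0.03 and -0.01 away. On consensus values the HNRNP medians were -0.35, -0.28 and -0.22, and those of the other families were negative in every library too: -0.31, -0.09 and -0.07 for SRSF, -0.23, -0.07 and -0.08 for SNRP and -0.42, -0.11 and -0.14 for SF3A and SF3B genes. At 4 µM the HNRNP medians were -0.22, -0.11 and -0.11 on summed FPKM. The medians of the other 3 families differed in sign between libraries at 6 µM on summed FPKM. The 7 dividing-cell genes moved in the same comparison, as given above, and their part in the HNRNP values was not tested.

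**Figure D2:**
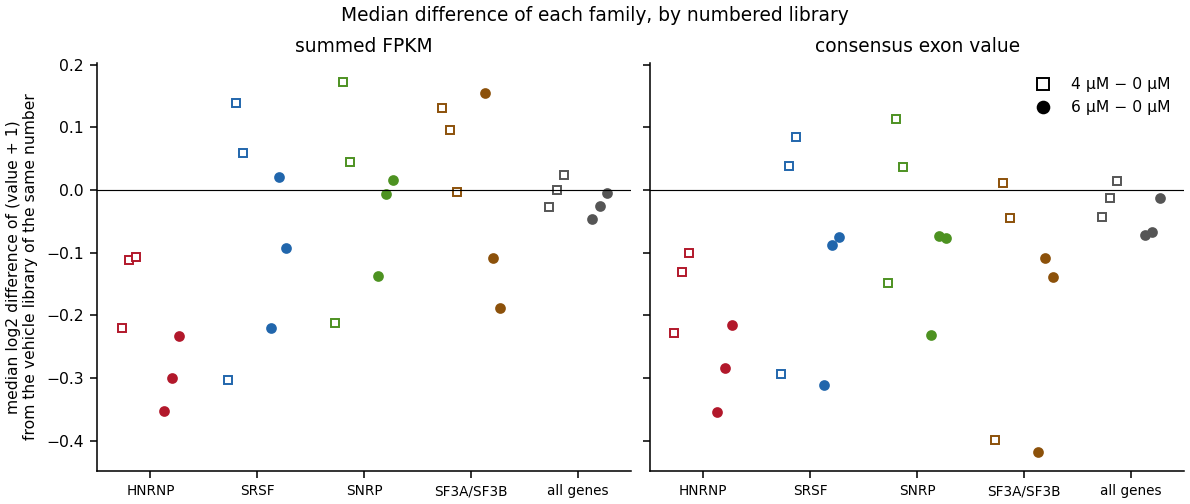
Median log2 difference of each family and of all genes from the vehicle library of the same number, at 4 µM (open squares) and 6 µM (filled circles), with libraries 1, 2 and 3 from left to right, as deposited. The 6 µM HNRNP medians on summed FPKM are -0.35, -0.30 and -0.23 and those of all genes -0.05 to -0.01; at a fixed sum the HNRNP median over libraries is 0.05 and that of all genes 0.22.

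HNRNPAB (chr5:178204533-178211163, GRCh38), an RNA-binding protein of the A/B type, had the smallest adjusted p of the 52 on the consensus exon value. Its consensus exon value was 188, 133 and 134 FPKM in vehicle libraries 1, 2 and 3, 109, 116 and 136 FPKM at 4 µM, and 84.4, 84.1 and 95.6 FPKM at 6 µM. All 6 µM libraries lay below all others, while 4 µM and vehicle overlapped. HNRNPAB fell at 6 µM to 88.0 ± 6.6 FPKM, against 152 ± 31.6 FPKM in vehicle (SD, n = 3 each), a log2 difference of -0.76 ± 0.16 (SE; limma, adjusted p = 0.0435). The call was lost in the blocked fit (limma, adjusted p = 0.0553) and without any single one of the 9 libraries (limma, adjusted p from 0.0502 to 0.146, difference from -0.84 to -0.60). As summed FPKM it was 193, 136 and 137 in vehicle, 134, 119 and 139 at 4 µM, and 97.2, 98.4 and 126 at 6 µM, with a difference of -0.52 ± 0.18 that did not pass (limma, adjusted p = 0.196).

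HNRNPUL2 (chr11:62712630-62727457), which resembles the nuclear scaffold protein hnRNP U, had the lowest summed difference of its family. Its summed FPKM was 68.8, 86.4 and 95.1 in vehicle, 73.3, 51.4 and 53.9 at 4 µM, and 51.3, 47.7 and 50.6 at 6 µM. The 6 µM libraries lay close together, below all vehicle libraries, and the difference of -0.72 ± 0.18 did not pass (limma, adjusted p = 0.0994). Its consensus values were 68.3, 59.6 and 53.2 FPKM in vehicle, 53.1, 51.4 and 49.8 FPKM at 4 µM, and 47.0, 47.7 and 49.9 FPKM at 6 µM, a smaller difference of -0.31 ± 0.12 (limma, adjusted p = 0.143). HNRNPUL1, its closest relative, had summed values of 124, 136 and 149.7 FPKM in vehicle, 128, 101 and 127 FPKM at 4 µM, and 90.8, 89.5 and 118 FPKM at 6 µM, again with 6 µM below vehicle in every library.

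HNRNPA1 and HNRNPA2B1 are the most abundant of the family on summed FPKM and are best known for silencing exons. HNRNPA1 (chr12:54280726-54287087) averaged 1032 FPKM over the 9 libraries, the highest of the 52 on summed FPKM. On consensus exons it averaged 472 FPKM, below HNRNPA2B1 at 536 FPKM and HNRNPC at 496 FPKM. Summed HNRNPA1 had 1154, 1246 and 1380.2 FPKM in vehicle, 1003, 877 and 883 FPKM at 4 µM, and 1115, 843 and 782 FPKM at 6 µM. Both doses lay below vehicle in every library, at -0.45 for 4 µM (limma, adjusted p = 0.397) and -0.48 ± 0.17 for 6 µM (limma, adjusted p = 0.196). On consensus exons, however, the 6 µM values of 478, 450.2 and 449.9 FPKM stood against 470.1, 482 and 549.8 FPKM in vehicle, the groups overlapped and the difference was -0.12 ± 0.11 (limma, adjusted p = 0.523). HNRNPA1 has many near-identical processed copies in the genome, and how reads were shared out among them was not stated in the labels. HNRNPA2B1 (chr7:26189927-26200746) had 1127, 563 and 691 FPKM in vehicle, 629, 749 and 739 FPKM at 4 µM, and 478, 450.3 and 573 FPKM at 6 µM. Its vehicle library 1 was far above the other 2, 1 of the 6 µM libraries overlapped vehicle, and the difference was -0.61 ± 0.25 (limma, adjusted p = 0.252). On consensus exons HNRNPA2B1 had 726, 535 and 631 FPKM in vehicle, 525, 487 and 523 FPKM at 4 µM, and 461, 440.4 and 494 FPKM at 6 µM, with both doses below vehicle in every library (at 6 µM -0.43 ± 0.14; limma, adjusted p = 0.104).

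HNRNPF and HNRNPH1 bind runs of G near splice sites. HNRNPF had 169.8, 139.8 and 154 FPKM in vehicle, 146, 129 and 142 FPKM at 4 µM, and 114, 113 and 125 FPKM at 6 µM, a difference of -0.39 ± 0.13 (limma, adjusted p = 0.170). HNRNPH1 had 195, 148 and 193 FPKM in vehicle, 132, 144 and 207 FPKM at 4 µM, and 123, 132 and 134 FPKM at 6 µM. For both genes the 6 µM libraries were below all vehicle libraries, and 4 µM overlapped vehicle. The poly-C binder HNRNPK had a difference of -0.23 and HNRNPL, which binds CA-rich RNA, one of -0.30. Of the 3 genes on the other side of 0, HNRNPA3 stood highest at 0.39, with 187, 319 and 171 FPKM in vehicle, 276, 285 and 357 FPKM at 4 µM, and 261, 289 and 308 FPKM at 6 µM, which overlap. HNRNPC, which coats U-rich stretches and averaged 524 FPKM, was at 0.07 and HNRNPDL at 0.03. HNRNPUL1, HNRNPF, HNRNPH1, HNRNPK, HNRNPL, HNRNPC, HNRNPDL and HNRNPA3 are named after their values were seen.

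**Figure D3:**
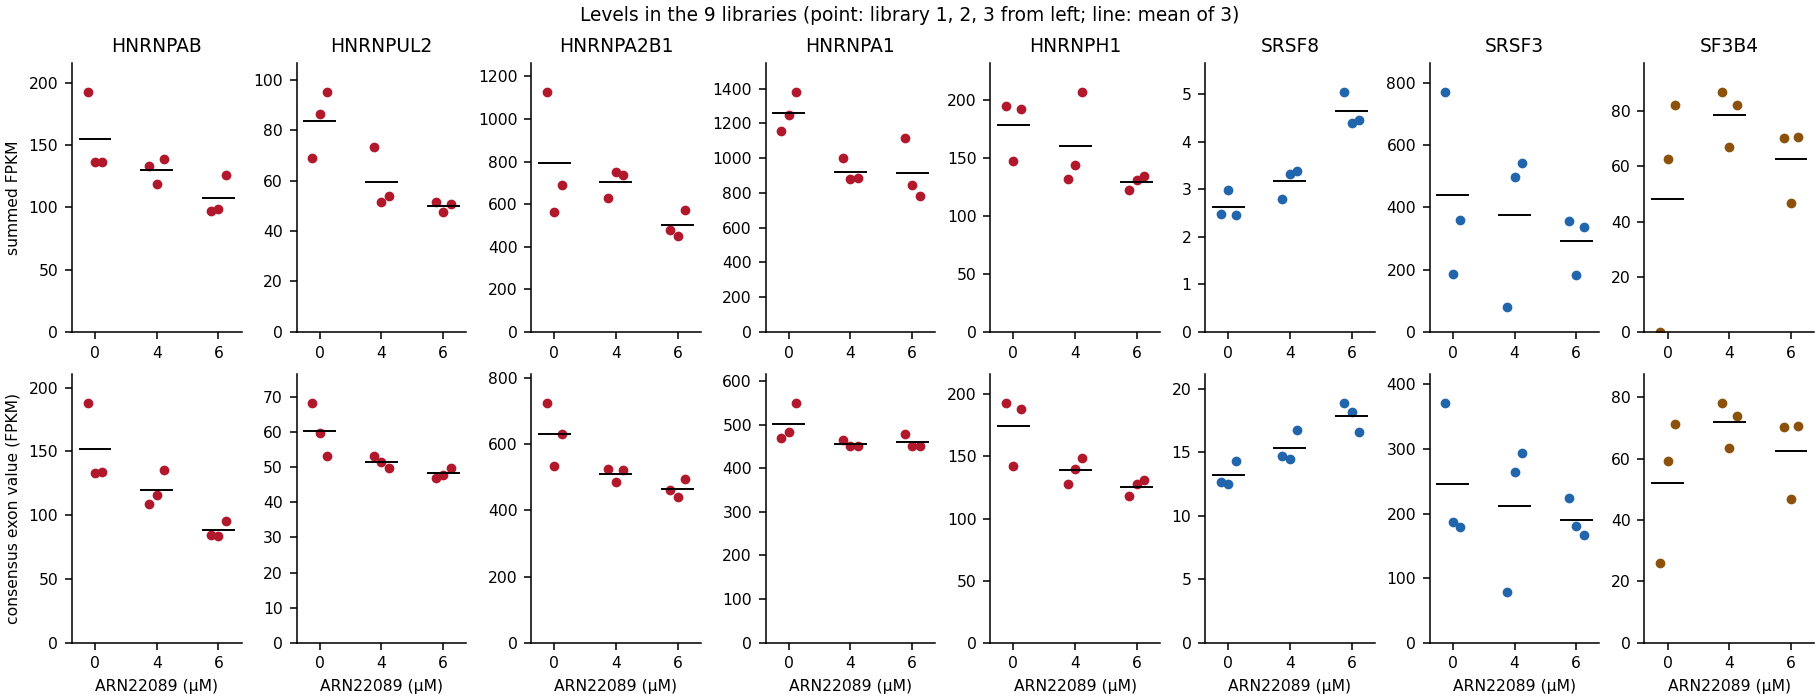
Summed FPKM (top) and consensus exon value (bottom, FPKM) of 8 genes in each of the 9 libraries at 0, 4 and 6 µM ARN22089; points are libraries 1, 2 and 3 from left to right and the line is the mean of 3. HNRNPAB and HNRNPUL2 lie lower at 6 µM than in every vehicle library in both rows, whereas the summed SRSF3 values run from 80.1 to 770.2 FPKM and SF3B4 is listed at 0 in vehicle library 1.

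The start regions of these genes, which the choice by symbol did not use, were searched for a list of 5 short motifs, and the counts are given with no test. In the RefSeq promoter table (GRCh38.p14, 250 bases before to 50 after the start) 48 of the 52 genes matched, beside 15843 protein-coding promoters in all, and each motif was searched on both strands. CCGGAAG, a core bound by ETS factors, was in 7 of 11 SNRP and 6 of 8 SF3A and SF3B promoters, against 3 of 19 HNRNP and 2 of 10 SRSF promoters and 14.2% of all. CACGTG, the E-box core, was in 7 of 19 HNRNP and 0 of 10 SRSF promoters, in 8 of the 48 and in 8.88% of all. CCAAT was in 13 of 19 HNRNP and 2 of 10 SRSF promoters and 36.4% of all, and TATAAA in 6 of the 48 and 9.63% of all. The NRF1 core, the fifth motif of the list, was in 0 of the 48 and 1.75% of all. A match is letters only and says nothing of a factor being bound. Below are the 250 bases before the start of HNRNPAB, HNRNPM and SNRPB, with the matches in capitals. HNRNPAB (chr5:178204283-178204532, plus strand) is the gene that passed on the consensus exon value only. HNRNPM (chr19:8444725-8444974, plus strand) is an E-box example and SNRPB (chr20:2470790-2471039, minus strand) a CCGGAAG example. CCAAT stands 118 and 75 bases and TATAAA 29 bases before the start of HNRNPAB, CACGTG 42 bases before that of HNRNPM and CCGGAAG 41 bases before that of SNRPB.
HNRNPAB: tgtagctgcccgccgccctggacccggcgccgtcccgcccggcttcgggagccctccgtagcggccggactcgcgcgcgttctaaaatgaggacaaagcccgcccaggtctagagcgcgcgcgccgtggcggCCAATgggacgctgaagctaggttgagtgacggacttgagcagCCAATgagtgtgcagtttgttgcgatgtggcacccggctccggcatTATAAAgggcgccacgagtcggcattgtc
HNRNPM: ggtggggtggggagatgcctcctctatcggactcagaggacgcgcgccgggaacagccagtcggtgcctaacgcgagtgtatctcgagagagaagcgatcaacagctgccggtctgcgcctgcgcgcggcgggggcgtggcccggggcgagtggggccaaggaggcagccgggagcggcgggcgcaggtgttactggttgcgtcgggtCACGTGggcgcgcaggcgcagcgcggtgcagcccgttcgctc
SNRPB: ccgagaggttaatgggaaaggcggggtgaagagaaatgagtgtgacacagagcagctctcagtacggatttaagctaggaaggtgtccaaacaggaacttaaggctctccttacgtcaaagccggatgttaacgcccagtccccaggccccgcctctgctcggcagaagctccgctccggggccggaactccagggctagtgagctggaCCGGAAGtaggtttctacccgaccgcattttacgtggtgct

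SNRP genes were expressed at the highest family median, 202 FPKM over the 9 libraries, against 149 FPKM for HNRNP, 76.9 FPKM for SF3A and SF3B and 70.2 FPKM for SRSF genes, and 11.5 FPKM for all genes tested. Among the Sm ring genes, SNRPD2 had the highest mean on summed FPKM, while SNRPE was above it on consensus exons (451 against 408 FPKM). Summed SNRPD2 had 414, 436 and 835 FPKM in vehicle, 453, 506 and 339 FPKM at 4 µM, and 455, 463 and 415 FPKM at 6 µM. Its groups overlapped, and its sign turned when vehicle library 3 was left out, from -0.26 to 0.06. SNRPB had 409, 255 and 332 FPKM in vehicle, 326, 326 and 325 FPKM at 4 µM, and 267, 263 and 233 FPKM at 6 µM, a difference of -0.36 ± 0.18 (limma, adjusted p = 0.324).

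Several Sm genes were uneven between libraries of 1 dose. SNRPD1 was at 191, 92.1 and 43.4 FPKM in vehicle, 46.8, 51.1 and 186 FPKM at 4 µM, and 161, 149 and 152 FPKM at 6 µM, so its difference of 0.74 ± 0.62 had a wide error (limma, adjusted p = 0.563). SNRPD3 was at 136, 141 and 173 FPKM in vehicle, 149.8, 165 and 175 FPKM at 4 µM, and 133, 146 and 46.6 FPKM at 6 µM, where library 3 alone was low. SNRPE was at 369.9, 572 and 633 FPKM in vehicle, 432, 588 and 233 FPKM at 4 µM, and 537, 484 and 219 FPKM at 6 µM, with library 3 low at both doses. The median coefficient of variation within a dose was 20.4% for SNRP, 21.8% for SRSF, 13.8% for HNRNP and 12.1% for SF3A and SF3B genes, beside 21.8% for all genes tested, on summed FPKM. On consensus exons the median coefficient of variation was 12.5% for SRSF and 17.9% for SNRP genes, beside 15.7% for all genes tested. No SNRP gene had groups apart at 6 µM on summed FPKM, where 14.1% of all genes lay below and 10.9% above. The SNRP genes include SNRPA and SNRPC of the U1 particle, SNRPA1 and SNRPB2 of the U2 particle and SNRPN. On consensus exons SNRPD2 was apart, with 6 µM below (1 of 12, against 19.2% of all genes).

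Among the genes of the branch-point complexes, SF3B2 and SF3B5 were the most abundant. SF3B5, the smallest SF3B subunit, had 135, 107 and 129 FPKM in vehicle, 153, 160.4 and 145 FPKM at 4 µM, and 151, 169 and 141 FPKM at 6 µM. Every treated library of either dose was above every vehicle library, with a difference of 0.31 ± 0.14 at 6 µM that did not pass (limma, adjusted p = 0.283). SF3B2 had 178, 126 and 139.6 FPKM in vehicle, 129, 129.8 and 120.3 FPKM at 4 µM, and 238, 116 and 126 FPKM at 6 µM. Its difference of 0.05 rested on 6 µM library 1 and was -0.28 without it and -0.23 on consensus exons. SF3A3, a subunit of SF3A, had 64.8, 38.3 and 40.8 FPKM in vehicle, 32.6, 38.1 and 42.7 FPKM at 4 µM, and 35.5, 32.8 and 34.0 FPKM at 6 µM, a difference of -0.44 ± 0.21 (limma, adjusted p = 0.310).

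SF3B6, which touches the branch point, had 141, 119.5 and 115 FPKM in vehicle, 103, 97.4 and 103 FPKM at 4 µM, and 82.5, 125 and 95.5 FPKM at 6 µM. Its 4 µM libraries were all below vehicle and its 6 µM libraries overlapped it. SF3B4 was listed at 0 in vehicle library 1, with 62.5 and 82.5 FPKM in the other 2, against 87.0, 66.9 and 82.2 FPKM at 4 µM and 70.3, 46.8 and 70.5 FPKM at 6 µM. It was the only gene of the 52 listed at 0 in a library with a median of at least 10 FPKM. On consensus exons that library had 26.1 FPKM, all from transcripts not named to SF3B4. The fitted difference of 1.84 ± 1.43 rested on it and was -0.22 without it. SF3B3, named after its values were seen, had consensus values of 82.6, 75.5 and 74.8 FPKM in vehicle, 59.5, 61.1 and 67.9 FPKM at 4 µM, and 56.9, 54.5 and 59.7 FPKM at 6 µM. All treated libraries lay below all vehicle libraries, and the difference of -0.44 ± 0.10 did not pass (limma, adjusted p = 0.0543). Its summed FPKM was 83.2, 75.5 and 74.8 in vehicle, 91.2, 86.6 and 67.9 at 4 µM, and 56.9, 96.7 and 59.8 at 6 µM, which overlap, with differences of 0.06 at 4 µM and -0.17 ± 0.22 at 6 µM (limma, adjusted p = 0.716 at 6 µM).

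SRSF8 (chr11:95066877-95071225), a retrogene-derived SR gene, was the lowest of the 52 on summed FPKM, at 3.48, a sum that leaves out its unspliced transcript. On consensus exons it averaged 15.5 FPKM, above HNRNPLL at 12.1 FPKM. SRSF8 was the only gene of the 52 higher at an unadjusted p below 0.05 on summed FPKM. It had 2.48, 2.98 and 2.45 FPKM in vehicle, 2.80, 3.33 and 3.39 FPKM at 4 µM, and 5.05, 4.41 and 4.47 FPKM at 6 µM, with all 6 µM libraries above all others. The difference was 0.63 ± 0.17 at 6 µM (limma, adjusted p = 0.113), and 0.41 ± 0.11 on consensus exons (limma, adjusted p = 0.0638). The summed value came from 1 chain of 1 intron, which is annotated as an NMD transcript. The consensus value also took in an unspliced transcript over the gene at 10.2, 9.79 and 12.0 FPKM in vehicle, 11.9, 11.1 and 13.7 FPKM at 4 µM, and 14.2, 14.1 and 12.2 FPKM at 6 µM, where all 6 µM libraries were again above vehicle.

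SRSF2, which also acts in transcription elongation, had 125, 121 and 138 FPKM in vehicle, 101, 75.7 and 119.9 FPKM at 4 µM, and 69.0, 62.8 and 164 FPKM at 6 µM. Libraries 1 and 2 at 6 µM were the lowest of the 9 and library 3 the highest, and the difference of -0.51 ± 0.35 did not pass (limma, adjusted p = 0.475). SRSF10, a regulator known from heat shock, had 39.4, 38.7 and 36.4 FPKM in vehicle, 31.0, 29.4 and 35.0 FPKM at 4 µM, and 30.0, 26.9 and 34.8 FPKM at 6 µM. Its treated libraries were all below vehicle at both doses, by -0.32 ± 0.14 at 6 µM (limma, adjusted p = 0.276). SRSF9 had 258, 199 and 221 FPKM in vehicle, 191, 206 and 229.8 FPKM at 4 µM, and 222, 202 and 166 FPKM at 6 µM, which overlap.

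SRSF3, a small SR protein needed for cell growth, was the most abundant SRSF gene and the most uneven. It had 770.2, 186 and 359 FPKM in vehicle, 80.1, 499 and 543 FPKM at 4 µM, and 357, 182 and 337 FPKM at 6 µM. Its difference of -0.41 ± 0.77 changed sign to 0.11 without vehicle library 1. On consensus exons its values still ran from 78.9 to 371 FPKM. SRSF6 had 60.6, 75.8 and 104 FPKM in vehicle, 48.9, 92.8 and 65.9 FPKM at 4 µM, and 90.2, 46.5 and 47.1 FPKM at 6 µM, with overlapping groups and a difference of -0.42 ± 0.34 (limma, adjusted p = 0.546).

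SRSF7 and SRSF11, named after their values were seen, differed between the 2 values. SRSF7 on consensus exons had 102, 75.2 and 88.4 FPKM in vehicle, 83.4, 87.4 and 80.0 FPKM at 4 µM, and 67.1, 69.8 and 67.1 FPKM at 6 µM, with 6 µM below all others (difference -0.37 ± 0.13; limma, adjusted p = 0.128). Its summed FPKM was at 0.05 ± 0.68, with a short chain, given below, assembled in 5 of the 9 libraries. SRSF11 on consensus exons had 31.4, 34.6 and 28.5 FPKM in vehicle, 27.6, 18.7 and 24.8 FPKM at 4 µM, and 18.3, 26.3 and 23.8 FPKM at 6 µM, so that both doses lay below vehicle (at 6 µM -0.46 ± 0.18; limma, adjusted p = 0.162). Its summed FPKM was 45.4, 47.2 and 39.4 in vehicle, 76.2, 52.0 and 35.2 at 4 µM, and 27.1, 39.5 and 34.4 at 6 µM, where both doses overlapped vehicle and the differences were 0.24 at 4 µM and -0.39 ± 0.27 at 6 µM.

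At 4 µM against vehicle the 52 genes as a whole were nearer to the rest. On summed FPKM 31 of 52 differences were negative with a median of -0.10, and 15 of 20 HNRNP genes with a median of -0.13, beside -0.004 over all genes. At an unadjusted p below 0.05 HNRNPA1 and HNRNPUL2 were lower (4.64% of all genes) and 0 of the 52 were higher (6.22% of all genes). Without vehicle library 1 the median over the 52 turned to 0.06, and to 0.05 relative to all genes. At 6 µM against 4 µM, 38 of 52 differences were negative with a median of -0.09 beside -0.03 over all genes, and SRSF11 was lower (2.98% of all genes) and SRSF8 higher (1.68% of all genes) at an unadjusted p below 0.05. The comparisons share libraries, so their values are given side by side and not as support for each other.

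Of a list of other splicing genes, which holds kinases of SR proteins, U2AF, the tri-snRNP and PRPF19-associated genes, Gemins and tissue splicing regulators, 85 were tested. On summed FPKM 0 passed at 6 µM against vehicle, 56 were negative and the median was -0.16, which is -0.12 relative to all genes (-0.11 at a fixed sum). At an unadjusted p below 0.05, 11 were lower, against 9.68% of all genes, and 3 (CLK1, CLK3 and DHX16) higher, against 8.03%. On consensus exons GEMIN4, part of the SMN complex that loads Sm rings, fell, with 20.4, 20.8 and 20.6 FPKM in vehicle, 16.7, 16.9 and 20.4 FPKM at 4 µM, and 13.3, 12.9 and 15.3 FPKM at 6 µM. Its 6 µM libraries were the lowest of the 9, and the difference was -0.55 ± 0.11 (limma, adjusted p = 0.0390). On this value 4.21% of all genes passed at 6 µM against vehicle. In the blocked fit 3 genes of the list passed on it, and leaving out single libraries gave 0 to 4, with 0 for 6 of the 9. Shares over all genes are not set beside the counts of those fits, so they are not read as a result about the list.

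The 5 genes of that list with the largest summed differences did not pass. PRPF40B had 5.21, 6.18 and 6.83 FPKM in vehicle, 0, 5.85 and 6.65 FPKM at 4 µM, and 0, 0 and 6.59 FPKM at 6 µM, a difference of -1.84. On consensus exons it had 6.08, 7.91 and 7.96 FPKM in vehicle, 2.43, 7.81 and 6.34 FPKM at 4 µM, and 2.72, 2.97 and 4.95 FPKM at 6 µM, with every 6 µM library below every vehicle library (difference -0.89 ± 0.34; limma, adjusted p = 0.152). BUD31, at 1.75 on summed FPKM, was listed at 0 in 6 libraries. Its consensus values were above 0 in all 9 and overlapped between the doses, in those 6 from transcripts not named to BUD31. LSM5, of the ring on U6, was at 1.17 ± 0.56. PRPF4, of the tri-snRNP, had 41.1, 24.3 and 35.7 FPKM in vehicle, 18.6, 22.2 and 29.1 FPKM at 4 µM, and 15.2, 14.9 and 26.5 FPKM at 6 µM, with overlap between library 3 at 6 µM and vehicle library 2. MBNL2, a regulator of tissue exons, had 15.8, 28.9 and 17.5 FPKM in vehicle, 13.9, 14.0 and 15.0 FPKM at 4 µM, and 12.4, 10.2 and 11.8 FPKM at 6 µM, with all treated libraries below vehicle (difference -0.76 ± 0.22; limma, adjusted p = 0.131). CLK1, a kinase that phosphorylates SR proteins and is named after its values were seen, had 13.6, 18.1 and 20.2 FPKM in vehicle, 15.5, 17.4 and 19.9 FPKM at 4 µM, and 23.4, 23.5 and 22.3 FPKM at 6 µM, with 6 µM above all others.

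Isoforms of the SRSF genes were compared by their exact chain of introns, since each library had been assembled on its own. The 11 genes gave 59 chains, of which 9 were found in all 9 libraries and 24 in only 1, and 17 matched an annotated transcript whole. Over all genes 26653 chains were tested, and at 6 µM against vehicle 51 (0.191%) passed, at 4 µM against vehicle 20 (0.075%) and at 6 µM against 4 µM 39 (0.146%). Among the SRSF chains 1 passed in each of the first 2 comparisons, a chain of SRSF11, and 0 in the last. That chain had cleared the filter on the mean only through the vehicle libraries, where it was high, so its p-values are a description and support nothing.

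SRSF11 (chr1:70205696-70253052, plus strand), a large SR-like protein, has 2 acceptors for its last intron, which lie 3 bases apart. The intron starts at position 70250504 and ends at 70250607 or 70250610. The mRNA around that junction is shown for both, as in the GENCODE transcripts with 24 bases on either side, and the 3 bases that the upstream acceptor adds are in capitals.
Upstream acceptor: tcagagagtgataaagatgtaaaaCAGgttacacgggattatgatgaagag
Downstream acceptor: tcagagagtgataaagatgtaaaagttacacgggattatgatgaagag
The chain of 11 introns that ends at the downstream acceptor was listed at 0 in all 6 treated libraries, against 11.6, 14.4 and 15.7 FPKM in vehicle (limma, adjusted p = 0.0211 at 6 µM and 0.0422 at 4 µM). The call was lost in the blocked fit, and without vehicle library 2 or 3 at 6 µM and in 6 of 9 single-library omissions at 4 µM. The acceptor itself was not lost. Summed over all SRSF11 transcripts, the downstream acceptor had 17.6, 14.4 and 15.7 FPKM in vehicle, 12.7, 8.41 and 7.49 FPKM at 4 µM, and 4.70, 17.4 and 0 FPKM at 6 µM. Transcripts with the upstream acceptor had 27.8, 32.7 and 23.8 FPKM in vehicle, 33.3, 22.3 and 27.7 FPKM at 4 µM, and 22.4, 22.1 and 34.4 FPKM at 6 µM. The downstream share was therefore 36.4 ± 5.01% in vehicle, 25.4 ± 3.59% at 4 µM and 20.5 ± 22.2% at 6 µM (SD, n = 3 each), and the 6 µM libraries spread from below to above the vehicle ones. An assembler that joins exons into different chains moves FPKM between chains of a gene, and the part this had in the SRSF11 call was not tested. The most abundant SRSF11 chain, of 12 introns and the upstream acceptor, was assembled in 6 libraries.

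**Figure D4:**
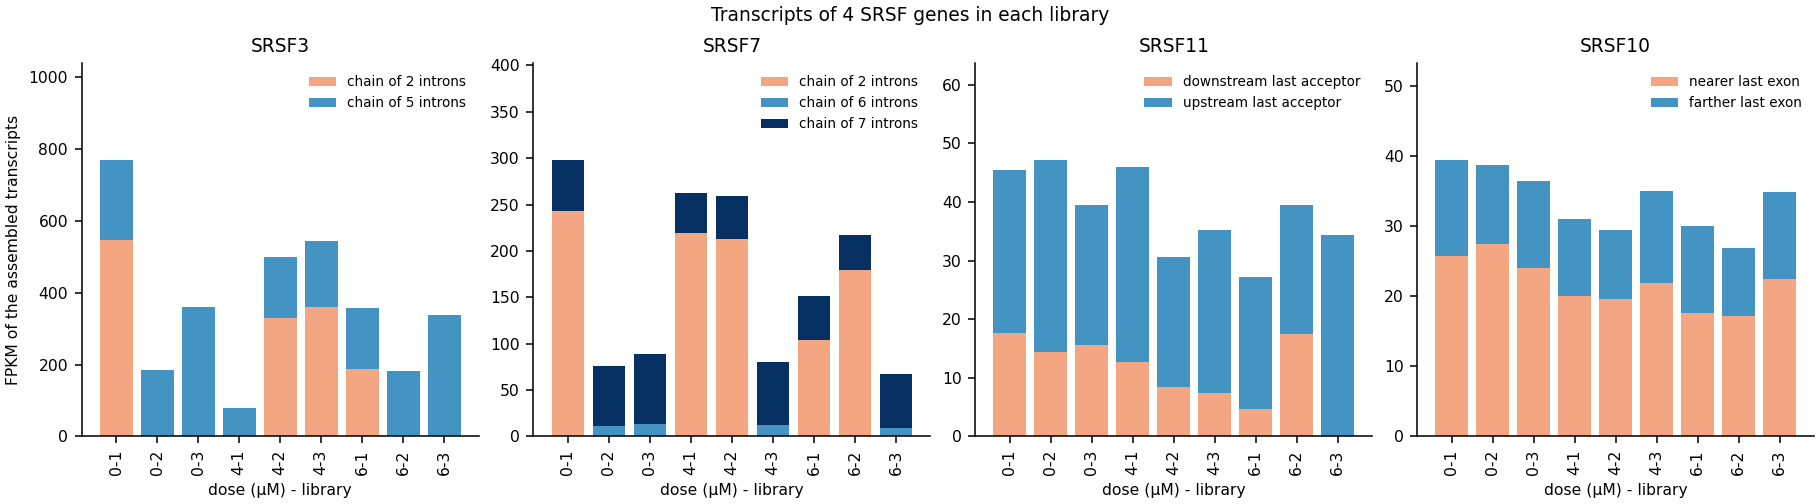
FPKM of the assembled transcripts of SRSF3, SRSF7, SRSF11 and SRSF10 in each library, stacked by isoform, with dose (µM) and library number on the x axis. Short chains of 2 introns of SRSF3 and SRSF7 are assembled in 4 and 5 of the 9 libraries with no order by dose, and the downstream last acceptor of SRSF11 has 17.4 FPKM in 6 µM library 2 but 0 in library 3.

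Exons annotated only in non-coding SRSF transcripts, among them the poison exons that lead to NMD, were looked for by the introns on either side. GENCODE annotates 20 cassette exons in SRSF genes, 15 of them, in 7 genes, only in transcripts that are not protein coding. Of these 15, 14 were skipped in all 9 libraries and 0 were included between both their introns in any. The other 1, in SRSF11, was neither skipped nor included in this way. Transcripts with the intron on only 1 side of an exon were not counted. SRSF11 chains that began with the intron after its exon at chr1:70231859-70231975 had 6.04 FPKM in vehicle library 1 and 2.16 FPKM in 6 µM library 1. An exon that was not assembled is not shown to be absent, since the depth is unknown. As an example, SRSF6 (chr20:43457896-43464243) has an exon of 268 bases whose reading frame ends after 149 bases. Its bases up to and including the stop codon, in capitals, are given as in the GENCODE transcript (chr20:43459153-43459304, plus strand).
SRSF6 exon: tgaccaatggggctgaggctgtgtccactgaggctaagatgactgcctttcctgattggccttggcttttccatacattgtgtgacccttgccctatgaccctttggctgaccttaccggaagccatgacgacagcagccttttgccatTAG
The junction that skips this exon was assembled in all 9 libraries. In each library 1 further SRSF6 transcript began 82 to 218 bases upstream of the exon and held the intron after it but not the one before, so that the bases of the exon were assembled in every library. Introns annotated only in non-coding transcripts carried 22.3, 35.7 and 13.6% of SRSF6 FPKM in vehicle, 23.1, 19.0 and 27.4% at 4 µM, and 26.2, 18.3 and 12.8% at 6 µM, with overlapping groups. The coding chain of 5 introns had 47.1, 37 and 64.9 FPKM in vehicle, 27.3, 49.9 and 35.5 FPKM at 4 µM, and 31.4, 21.6 and 25.4 FPKM at 6 µM. All its 6 µM libraries lay below vehicle, and it did not pass over all chains (limma, adjusted p = 0.597). How many chains of all genes lay apart in this way was not counted.

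In all, 6 events had a share in all 9 libraries and were tested for a slope on dose by an exact two-sided permutation test over 1680 arrangements, and 0 had p below 0.05 (smallest exact p = 0.333, adjusted p = 0.767 over the 6). For 3 of the 6 no arrangement could have passed: the share was above 0 in 1 library for SRSF2 and in 2 for SRSF1 and for SRSF11, where the smallest p possible in the exact test was 0.333 and 0.0833. They were a cassette exon of 36 bases of SRSF7 (chr2:38746144-38746179) and the share of introns annotated only in non-coding transcripts in SRSF1, SRSF2, SRSF5, SRSF6 and SRSF11. A comparison of 3 with 3 libraries could not have gone below 0.10 and was not made. The SRSF7 exon was in 100, 85.0 and 85.3% of the informative FPKM in vehicle, 100, 100 and 84.5% at 4 µM, and 100, 100 and 86.6% at 6 µM, since the skipping chain of 6 introns was assembled in only 4 libraries, at 9.05 to 13 FPKM. In SRSF5 the share was 0, 81.1 and 0% in vehicle, 80.8, 0 and 36.9% at 4 µM, and 0, 33.3 and 71.3% at 6 µM, so the assemblies of this gene alternated between forms within a dose. SRSF2 had an NMD chain only in 6 µM library 3, at 42.0 FPKM, the same library in which its summed FPKM was highest. Its coding chain of 2 introns had 125, 121 and 138 FPKM in vehicle, 101, 75.7 and 119.9 FPKM at 4 µM, and 69.0, 62.8 and 122 FPKM at 6 µM.

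Short chains carried much of the summed FPKM of SRSF3 and SRSF7 in some libraries. A chain of 2 introns of SRSF3 had 547, 0 and 0 FPKM in vehicle, 0, 329 and 362 FPKM at 4 µM, and 188, 0 and 0 FPKM at 6 µM, and that of SRSF7 243, 0 and 0 FPKM in vehicle, 219.6, 213 and 0 FPKM at 4 µM, and 104, 179.6 and 0 FPKM at 6 µM. Neither followed dose. The full coding chain of SRSF3, of 5 introns, had 223, 186 and 359 FPKM in vehicle, 80.1, 169.8 and 182 FPKM at 4 µM, and 169, 182 and 337 FPKM at 6 µM. The coding chain of 7 introns of SRSF7 had 55.2, 64.2 and 75.6 FPKM in vehicle, 42.5, 46.5 and 68.0 FPKM at 4 µM, and 47.6, 37.7 and 58.4 FPKM at 6 µM, which overlap.

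SRSF10 uses 2 alternative last exons, and the one nearer the start carried 25.7, 27.5 and 24.0 FPKM in vehicle, 20.0, 19.6 and 21.8 FPKM at 4 µM, and 17.5, 17.1 and 22.5 FPKM at 6 µM. The farther one had 13.7, 11.3 and 12.4 FPKM in vehicle, 11, 9.80 and 13.1 FPKM at 4 µM, and 12.5, 9.79 and 12.3 FPKM at 6 µM. All treated libraries were thus below vehicle for the nearer exon and overlapped vehicle for the farther one, and the nearer exon's share was 67.4 ± 3.11% in vehicle, 64.6 ± 2.12% at 4 µM and 62.2 ± 3.38% at 6 µM (SD, n = 3 each). This share was below vehicle in every 6 µM library and overlapped vehicle at 4 µM, and it was not tested. The pair of last exons was not among the events given above, and how often such pairs lie apart in other genes was not counted. SRSF4 had its coding chain of 5 introns in all libraries, at 24.5 to 53.6 FPKM. SRSF9 had 1 chain, of 3 introns, and SRSF8 the 1 chain given above. The most abundant chain of SRSF1, the classic SR protein, has 3 introns and was missing from vehicle library 3 and 4 µM library 1, with 30.4 and 31.9 FPKM in the other vehicle libraries, 78.5 and 98.8 FPKM in the others at 4 µM, and 80.9, 44.6 and 23.4 FPKM at 6 µM. SRSF5 had 14 chains, 8 of them in 1 library only, and its most abundant one was assembled in 5 libraries.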

How the data were processed

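Per the submitters' processing notes, the authors' tools were Trimmomatic, Cufflinks 2.2.1, TopHat2 2.1 with Bowtie2 2.2.7, R 4.0.3 and SAMtools 1.9. The deposited files are 1 Cufflinks transcript assembly per library, whose values are FPKM, held in a text column beside coverage. The same notes name GRCh37, but 97.98% of 1693002 assembled introns lie at the GRCh38 places of GENCODE v44 introns, so coordinates are GRCh38. Of 193769 spliced transcripts, 188561 were named by the gene on the same strand with the most shared introns; single-exon transcripts were named only where at least 50% lay in 1 RefSeq gene with no spliced assembly. FPKM was summed per gene, and log2(FPKM + 1) was tested for genes averaging 1 FPKM or more with limma 3.58.1 in R 4.3.3 (variance trend, dose as factor, 9 libraries, 6 residual degrees of freedom, threshold 0.05); Python 3.11.15 did the rest. Scripts were tested on simulated data.

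Same-numbered libraries share a mark in the labels, taken as pairing. Their deviations correlated with r of -0.01 to 0.13 (2 of 9 pairs over 0.1), against -0.09 to 0.02 for other pairs. Each of 9 libraries correlated best with its own number. The highest values lay between the 4 and 6 µM libraries. Same-numbered vehicle and 4 µM libraries had r of -0.008, 0.005 and 0.017, within the range of other pairs. Fits not called blocked take no account of the pairing. Named genes are, per family, the 4 with the largest difference at 6 µM, the 2 most abundant, genes that passed, those listed at 0, all SRSF genes for isoforms, and the other splicing genes that passed or were among the 5 largest. The genes and lists were chosen with earlier results of these data known.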

Additional observations from a re-analysis of the deposited data

How the results depend on the processing

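The alternatives were a consensus exon value, a fixed summed FPKM, median-of-ratios scaling, other pseudocounts and filters, spliced transcripts only, the replicate number as a block, the libraries of the 2 doses only, and leaving out each library. The block, median-of-ratios scaling and single-library omissions of the consensus exon value were added after seeing the data. The number of the 52 genes that passed at 6 µM was 0, and 1 on the consensus exon value; on that value it was 0 with the replicate block, 2 with median-of-ratios scaling and 0 to 0 without single libraries. HNRNPAB kept its difference of -0.76 with the replicate block but not its call, and lay between -0.84 and -0.60 without single libraries. Rescaling to a fixed sum reversed the median over the 52 genes to 0.089 at 6 µM and 0.25 at 4 µM and the HNRNP median to 0.053. Without single libraries the 4 µM median ran from -0.19 to 0.063, and from -0.18 to 0.049 relative to all genes, positive only without vehicle library 1. Relative to all genes the 6 µM median of the 52 stayed between -0.21 and -0.11 in all 19 alternatives. Among 19 named genes with up to 19 alternatives (359 values), 8 values were reversed, 14 genes never, and 1 value passed. Those reversed were SRSF9 (0.099) and SNRPD2 (0.040) at a fixed sum, SF3B2 (-0.23) on consensus exons, and without single libraries SRSF3 (-0.91 to 0.11), SNRPD2 (-0.44 to 0.064), SF3B4 (-0.22 to 2.97) and SF3B2 (-0.28 to 0.24). Slopes of the non-coding share in percent per µM also changed sign without single libraries, from -3.55 to 1.15 for SRSF1, -0.83 to 0.41 for SRSF11, -0.90 to 6.08 for SRSF5 and -1.64 to 0.26 for SRSF6; no slope had p below 0.05 in any of the 11 alternatives. The 1 SRSF chain that passed became 0, at 6 µM and at 4 µM, with a mean of at least 5 FPKM, a pseudocount of 0.1 or the replicate block; without single libraries the count was 0 to 1 in every comparison. For genes of all kinds the 17 that passed at 6 µM became 4 with the replicate block, 14 to 59 without single libraries, 43 with median-of-ratios scaling, 93 with a mean of at least 10 FPKM and 518 on consensus exons; that last count was 9 to 552 without single libraries. The block changed no other call among the 52. The cause of each of these changes was not tested. Depth is unknown, so no counting limit can be given.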
